A study of Mus musculus with 11 samples.

Results

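The genes described here encode the nuclear subunits of the mitochondrial respiratory chain and ATP synthase, together with the complex I assembly factors that carry the same name prefix. They were chosen by symbol: every gene that has a transcript cluster annotated to it alone and whose symbol starts with Nduf, Uqcr, Cox4 to Cox8 or Atp5, or is one of Sdha, Sdhb, Sdhc and Sdhd. The rule found 89 of the 19938 genes tested. They comprise 34 subunits of complex I, 7 complex I assembly factors, 4 subunits of complex II, 8 of complex III, 19 genes of complex IV with its isoforms and associated proteins, and 17 of complex V. Each mouse was read on its own Affymetrix Mouse Gene 1.0 ST array, and a level is the log2 of a summarised probe signal, so a difference of 1 is a doubling. A level belongs to its own probe set, and levels of different genes are not compared.

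The RNA came from rectal mucosa of 11 mice aged 10 weeks. The α6ΔIEC-TAM mice are a mutant in which tamoxifen is meant to remove Itga6 from intestinal epithelial cells. The group labelled mutant tamoxifen held 4 such mice, of which 1 was male, given tamoxifen by gavage at 10 mg per day on alternate days over 5 days, starting at 8 weeks of age. The group labelled control tamoxifen held 3 wild-type mice, of which 2 were male, given the same tamoxifen course. The group labelled mutant NaCl held 4 α6ΔIEC-TAM mice, of which 1 was male, given NaCl in its place. All were analysed 15 days after the first gavage. The sources used here do not name the promoter that drives the recombinase. Array numbers below only name an array within its group. Nothing in the labels gives litters or cages, so a p-value weighs a group difference against the spread between these 11 animals within their groups.

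The respiratory chain passes electrons from NADH through complex I, or from succinate through complex II, to ubiquinone, complex III, cytochrome c and finally complex IV, which reduces oxygen. Complexes I, III and IV pump protons across the inner mitochondrial membrane, and complex V, the ATP synthase, uses the returning protons to make ATP. Colonocytes are known for oxidising short-chain fatty acids, above all butyrate, in their mitochondria.

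The deletion target itself was checked first. Itga6, the integrin α6 gene, read 11.76, 11.93, 11.84 and 11.77 on the 4 arrays carrying the mutant tamoxifen label, 11.15, 11.52 and 11.49 in control tamoxifen and 11.39, 11.28, 11.49 and 11.47 in mutant NaCl. It was thus higher, not lower, in the mutant tamoxifen group, by 0.42 and 0.41 (adjusted p = 0.0095 and 0.0053, limma). Whether its transcript cluster lies inside the deleted stretch cannot be told from the sources used here, so this value does not check the labels. Every direction below follows the labels. The 12 pan-epithelial markers averaged 12.34 to 12.48 in mutant tamoxifen, 12.23 to 12.30 in control tamoxifen and 12.22 to 12.28 in mutant NaCl. Of these, 3 rose against control tamoxifen (25%) and 5 against mutant NaCl (41.7%). Of all genes tested, 24.6% and 23.2% passed in either direction. The mean of 12 stratified squamous markers was uneven, at 6.88, 9.69 and 7.64 in control arrays 1, 2 and 3. It was 8.29 to 9.76 in mutant tamoxifen and 8.53 to 9.61 in mutant NaCl, so control arrays 1 and 3 lay below every mutant array. Of 12 neutrophil markers, 10 rose against control tamoxifen and 11 against mutant NaCl, with means of 7.40 to 7.96 in mutant tamoxifen, 6.79 to 7.0 in control tamoxifen and 6.76 to 6.86 in mutant NaCl. The part of these marker lists in the members' results was not tested. Array medians lay between 7.29 and 7.35. The number of arrays limits the precision of every value.

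Few respiratory chain genes differed between the groups. Against control tamoxifen, 2 of the 89 members rose and 7 fell in the mutant tamoxifen group (10.1%), at an adjusted p under 0.05 from limma with Benjamini-Hochberg adjustment over all genes. In the same comparison 24.6% of all genes tested passed, 12.9% higher and 11.8% lower. Against mutant NaCl, 3 members rose and 3 fell (6.74%), beside 23.2% of all genes, 12.5% higher and 10.7% lower. In mutant NaCl minus control tamoxifen no member passed, nor did any gene (0% of all genes tested). At an unadjusted p under 0.05 that last comparison held 2 members and 1622 genes, and the other settings of the same limma test called 0 to 3 genes. The first 2 comparisons share the mutant tamoxifen arrays, so they are not independent of each other. All differences are adjusted for sex, so a small one can differ in sign from the plain difference of group means. This was so for 5 members against control tamoxifen (Atp5b, Atp5mpl, Ndufa4l2, Ndufb2 and Sdhd), 0 against mutant NaCl and 12 in mutant NaCl minus control tamoxifen. In tissue RNA, fewer cells of a type and less RNA per cell cannot be told apart.

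The members are mostly bright on the array, and brighter genes passed the test more often. Among genes with a mean level above 10, 40.3% passed against control tamoxifen and 38.9% against mutant NaCl, while of the 59 members in that range 8 (13.6%) and 5 (8.47%) did. Among genes with a mean level above 12 the shares were 41.5% and 40.7%, and of the 20 members in that range 1 (5%) passed in each comparison.

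The differences of the members were small as well as seldom called. Their median difference was -0.03 against control tamoxifen and 0.00 against mutant NaCl, beside -0.02 and -0.01 over all genes. The median size of the difference, whatever its sign, was 0.08 against control tamoxifen, where it was 0.12 over all genes and 0.16 over genes above a level of 10. Against mutant NaCl it was 0.0884, nearly the same as the 0.0891 over all genes, and 0.14 over genes above a level of 10. Of the 89 members, 2 differed by more than 1.5-fold from control tamoxifen, Cox7a1 and Cox8b, and none did from mutant NaCl. Over all genes, 5.01% and 3.69% did, so few of any 89 genes would. For 85 members (95.5%) the 95% confidence interval of the difference from control tamoxifen lay within 1.5-fold either way, which held for 86.3% of all genes. Against mutant NaCl it was 86 members (96.6%) and 89.4% of all genes. The values of the 2 groups did not overlap for 19 members (21.3%) against control tamoxifen and for 9 (10.1%) against mutant NaCl, beside 37.4% and 26.8% of all genes. The median within-group standard deviation of the members was 0.0753 in mutant tamoxifen, 0.0798 in control tamoxifen and 0.0730 in mutant NaCl, beside 0.0746, 0.0755 and 0.0780 over all genes.

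**Figure D1:**
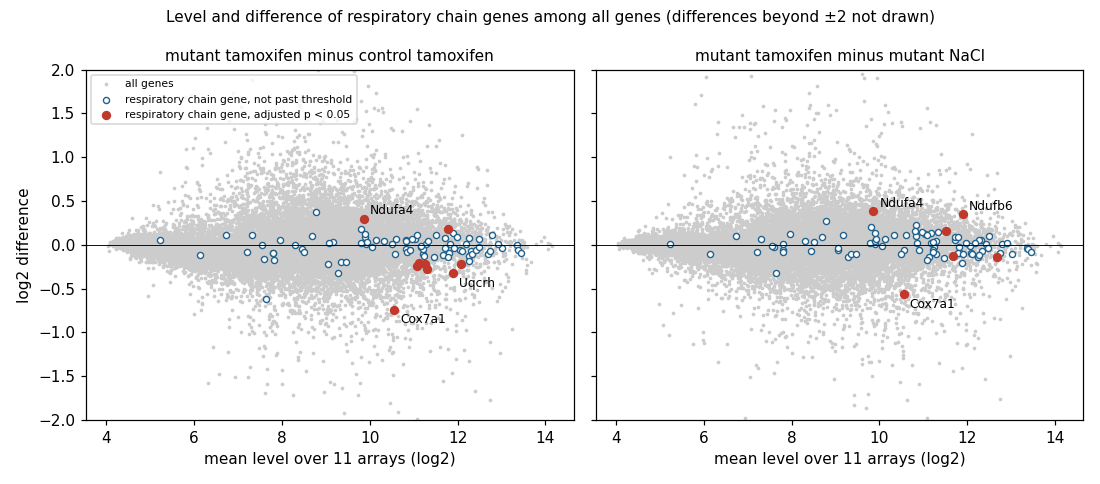
Log2 difference (vertical axis) against mean level over the 11 arrays (horizontal axis, log2) for all 19938 genes (grey) and the 89 respiratory chain genes (circles, filled red where adjusted p is under 0.05), for mutant tamoxifen against control tamoxifen (left) and against mutant NaCl (right). Most circles lie close to the zero line on the bright side of the grey cloud, and Ndufa4 and Cox7a1 are filled in both panels.

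Averaged over the 72 general subunits of complexes I to V, the array means ran from 11.11 to 11.23 in mutant tamoxifen, 11.12 to 11.25 in control tamoxifen and 11.11 to 11.25 in mutant NaCl. The 3 ranges covered nearly the same span, and each group held 1 array at its low end: array 4 of mutant tamoxifen, array 1 of control tamoxifen and array 4 of mutant NaCl. Complex I means overlapped in the same way, at 10.50 to 10.62, 10.51 to 10.64 and 10.49 to 10.64, as did those of complex III, at 11.39 to 11.51, 11.39 to 11.53 and 11.43 to 11.54. Complex V means were 11.74 to 11.83, 11.69 to 11.81 and 11.69 to 11.82.

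**Figure D2:**
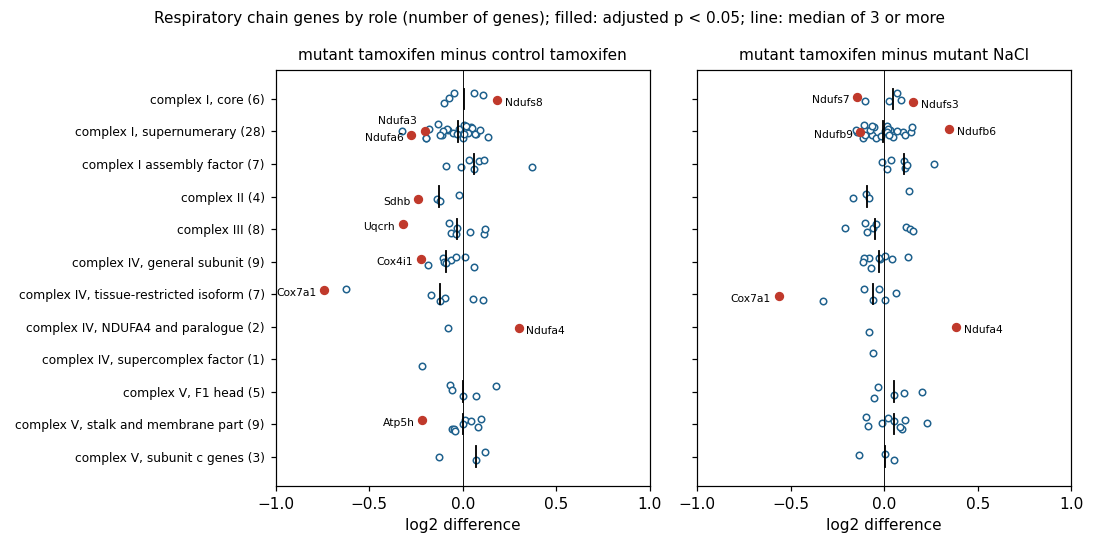
Log2 difference of each of the 89 genes (horizontal axis), grouped by role (vertical axis, number of genes in brackets), for both comparisons of the mutant tamoxifen group. Filled red points passed an adjusted p of 0.05 and are named, and the black line is the median of a role with 3 or more genes. Named points are scattered over the roles, and Cox7a1 (-0.74 and -0.56) and Ndufa4 (0.30 and 0.38) are filled in both panels.

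The core of complex I carries the flavin and the iron-sulfur clusters that take electrons from NADH to ubiquinone. Of its 6 genes measured here, 1 rose against control tamoxifen, and 1 rose and 1 fell against mutant NaCl, with medians of 0.01 and 0.05. Ndufs8, which encodes an iron-sulfur subunit, had levels of 11.96, 11.82, 11.89 and 11.76 in mutant tamoxifen and 11.62, 11.70 and 11.74 in control tamoxifen. All 4 mutant tamoxifen values lay above the control values, a difference of 0.19 (SE 0.059, adjusted p = 0.043, limma). In mutant NaCl the values of 11.71, 11.79, 11.76 and 11.82 overlapped those of mutant tamoxifen, and the difference was 0.09 (adjusted p = 0.25).

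Ndufs3, a core subunit of the peripheral arm, had levels of 11.55, 11.59, 11.66 and 11.61 in mutant tamoxifen against 11.45, 11.49, 11.44 and 11.42 in mutant NaCl, and the groups did not overlap. It rose by 0.16 (SE 0.042, adjusted p = 0.021). Against the control values of 11.43, 11.56 and 11.47 its difference of 0.11 did not pass (adjusted p = 0.12). Ndufs7, which carries the iron-sulfur cluster next to the ubiquinone site, went the other way, with 12.70, 12.52, 12.62 and 12.55 in mutant tamoxifen and 12.73, 12.73, 12.75 and 12.77 in mutant NaCl. All its mutant tamoxifen values lay below the mutant NaCl values, a difference of -0.14 (SE 0.040, adjusted p = 0.025). Against control tamoxifen Ndufs7 differed by -0.10 (adjusted p = 0.14). The other core genes, Ndufs1, Ndufv1 and Ndufv2, differed by -0.07 to 0.06 from control tamoxifen and passed in neither comparison.

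The supernumerary subunits surround the complex I core and are needed for its assembly and stability. Of 28 genes, 2 fell against control tamoxifen, and 1 rose and 1 fell against mutant NaCl, with medians of -0.03 and -0.01. Ndufa6, an LYR-motif subunit that holds the acyl carrier protein NDUFAB1, had levels of 11.19, 11.26, 11.22 and 11.11 in mutant tamoxifen against 11.50, 11.37 and 11.45 in control tamoxifen. The groups did not overlap, and the difference was -0.28 (SE 0.084, adjusted p = 0.035). Its mutant NaCl values of 11.35, 11.36, 11.41 and 11.06 held 3 arrays above every mutant tamoxifen array and 1 below every one, and that difference of -0.10 did not pass (adjusted p = 0.36).

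Ndufa3, a small membrane subunit, had levels of 11.10, 10.98, 11.04 and 10.99 in mutant tamoxifen and 11.12, 11.24 and 11.26 in control tamoxifen. The groups just failed to meet, and the difference was -0.20 (SE 0.060, adjusted p = 0.031). Its difference from mutant NaCl was -0.14 (adjusted p = 0.072). Ndufb6, of the membrane arm, had levels of 11.93, 12.15, 12.12 and 12.12 in mutant tamoxifen and 11.85, 11.96, 11.72 and 11.39 in mutant NaCl. It rose by 0.35 (SE 0.107, adjusted p = 0.038), although 1 array of each group crossed into the range of the other, and array 4 of mutant NaCl was the lowest of all. Against control values of 11.61, 11.98 and 11.98 its difference was 0.14 (adjusted p = 0.45). Ndufb9, another LYR-motif subunit, had levels of 11.61, 11.58, 11.63 and 11.54 in mutant tamoxifen and 11.71, 11.76, 11.70 and 11.70 in mutant NaCl, without overlap. It fell by 0.13 (SE 0.038, adjusted p = 0.034), and its difference from control tamoxifen was -0.12 (adjusted p = 0.065).

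The 24 remaining supernumerary genes passed in neither comparison. Their differences from control tamoxifen reached from -0.33 for Ndufa1 (adjusted p = 0.097) to 0.09 for Ndufs4 (adjusted p = 0.42). Ndufa1, Ndufb11 and Cox7b lie on the X chromosome, and males were more frequent in the control group. The term for sex in the fit passed for no member. The 7 assembly factors Ndufaf1 to Ndufaf7, which help build complex I and are not part of it, also gave no call. Ndufaf4 differed most, at 8.85, 8.83, 9.25 and 9.0 in mutant tamoxifen against 8.30, 8.76 and 8.74 in control tamoxifen. Its groups did not overlap, and the difference of 0.37 (SE 0.156, adjusted p = 0.11) missed the threshold.

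Complex II oxidises succinate and is shared between the chain and the tricarboxylic acid cycle. The median of its 4 sex-adjusted differences from control tamoxifen was -0.13, and 1 gene fell. Sdhb, which encodes the iron-sulfur subunit, had levels of 11.08, 10.97, 10.96 and 10.85 in mutant tamoxifen and 11.04, 11.27 and 11.16 in control tamoxifen. One mutant tamoxifen array lay above the lowest control array, and the difference was -0.24 (SE 0.071, adjusted p = 0.033). Against mutant NaCl values of 11.17, 11.26, 11.10 and 11.01 it was -0.17 (adjusted p = 0.073).

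Sdha, the flavoprotein, differed from control tamoxifen by -0.14 (adjusted p = 0.18), and the membrane anchors Sdhc and Sdhd by -0.12 (adjusted p = 0.18) and -0.02 (adjusted p = 0.90). Sdha values were 11.66, 11.85, 11.71 and 11.58 in mutant tamoxifen and 11.91, 11.81 and 11.81 in control tamoxifen, which overlap by 1 array. Array means over complex II were 11.15 to 11.32 in mutant tamoxifen, 11.32 to 11.42 in control tamoxifen and 11.22 to 11.41 in mutant NaCl. The first 2 ranges met at their ends, and the third overlapped both.

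Complex III passes electrons from ubiquinol to cytochrome c. Of its 8 genes, 1 fell against control tamoxifen and none passed against mutant NaCl, with medians of -0.03 and -0.05. Uqcrh, the hinge protein at the contact with cytochrome c, had levels of 11.94, 11.80, 11.68 and 11.51 in mutant tamoxifen and 12.07, 12.08 and 11.88 in control tamoxifen. The groups overlapped by 1 array, and the difference was -0.32 (SE 0.099, adjusted p = 0.037). The mutant NaCl values of 12.02, 12.07, 11.86 and 11.83 gave a difference of -0.21 (adjusted p = 0.11). The core proteins Uqcrc1 and Uqcrc2 differed from control tamoxifen by -0.03 each, and the Rieske iron-sulfur protein Uqcrfs1 by 0.12 (adjusted p = 0.18).

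Complex IV, cytochrome c oxidase, has nuclear subunits of which several exist as a general form and a form made in particular tissues. Of the 9 general subunits, 1 fell against control tamoxifen and none passed against mutant NaCl. Their medians were -0.09 and -0.03, and 7 of 9 differences from control tamoxifen were below 0. Cox4i1, the general form of the largest nuclear subunit, had levels of 11.16, 11.23, 11.23 and 11.14 in mutant tamoxifen and 11.41, 11.38 and 11.37 in control tamoxifen. The groups did not overlap, and the difference was -0.22 (SE 0.070, adjusted p = 0.039).

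In mutant NaCl, Cox4i1 stood at 11.26, 11.35, 11.21 and 11.02, also below every control array. The difference between mutant tamoxifen and mutant NaCl was -0.02 (adjusted p = 0.85), and that between mutant NaCl and control tamoxifen was -0.20 (adjusted p = 0.54). Cox4i1 had the smallest adjusted p of any member in the last comparison, and that comparison called no gene. Cox8a, the general form of subunit VIII, fell just short against control tamoxifen, at -0.19 (SE 0.063, adjusted p = 0.052). Cox6c had all mutant tamoxifen values below all those of both other groups, with differences of only -0.09 and -0.08 (adjusted p = 0.099 and 0.098). Cox7a2l, which joins complexes III and IV into supercomplexes, differed by -0.22 from control tamoxifen (adjusted p = 0.12) and by -0.06 from mutant NaCl (adjusted p = 0.67).

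The tissue-restricted forms include those of muscle, and the largest decrease among all 89 genes was in one of them. Cox7a1 (Entrez Gene 12865), the heart and muscle form of subunit VIIa, had levels of 10.31, 10.37, 10.09 and 9.86 in mutant tamoxifen, 10.47, 11.09 and 10.96 in control tamoxifen and 10.70, 10.79, 10.66 and 10.74 in mutant NaCl. Every mutant tamoxifen value lay below every value of the other groups, and control array 1 was the closest. Cox7a1 fell by 0.74 against control tamoxifen (SE 0.152, adjusted p = 0.0062, 1.67-fold) and by 0.56 against mutant NaCl (SE 0.132, adjusted p = 0.011, 1.48-fold). Without control array 2 the first difference was -0.58 and no longer passed. Its general partner Cox7a2 had levels of 11.39, 11.40, 11.27 and 11.14 in mutant tamoxifen, 11.24, 11.30 and 11.29 in control tamoxifen and 11.23, 11.36, 11.22 and 11.24 in mutant NaCl, which overlapped throughout (differences 0.01 and 0.04).

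Smooth muscle markers were lower in the same arrays as Cox7a1. All 12 of 12 listed markers fell in both comparisons, beside 11.8% and 10.7% of all genes tested. Their mean level was 11.42 to 11.56 in mutant tamoxifen, 11.99 to 12.11 in control tamoxifen and 11.84 to 12.13 in mutant NaCl. Within the control group the order differed, since array 1 had the lowest Cox7a1 level and the highest smooth muscle mean. The part of muscle RNA in the Cox7a1 result was not tested.

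Cox8b, the muscle form of subunit VIII, had levels of 7.55, 7.54, 7.07 and 7.13 in mutant tamoxifen, 7.73, 7.70 and 8.81 in control tamoxifen and 7.46, 7.63, 7.27 and 8.22 in mutant NaCl. One control array and 1 mutant NaCl array stood far above the rest, and the differences of -0.62 (SE 0.286, adjusted p = 0.14) and -0.33 (adjusted p = 0.40) did not pass. The same arrays had the highest means of 12 striated muscle markers, 9.07 in control array 3 and 8.42 in mutant NaCl array 4, where the other 9 arrays ranged from 7.44 to 8.05. Of these 12 markers, 1 fell against each of the other groups (8.33%), beside 11.8% and 10.7% of all genes tested. Cox8b had the largest within-group standard deviation of the members in all 3 groups, up to 0.63 in control tamoxifen.

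**Figure D3:**
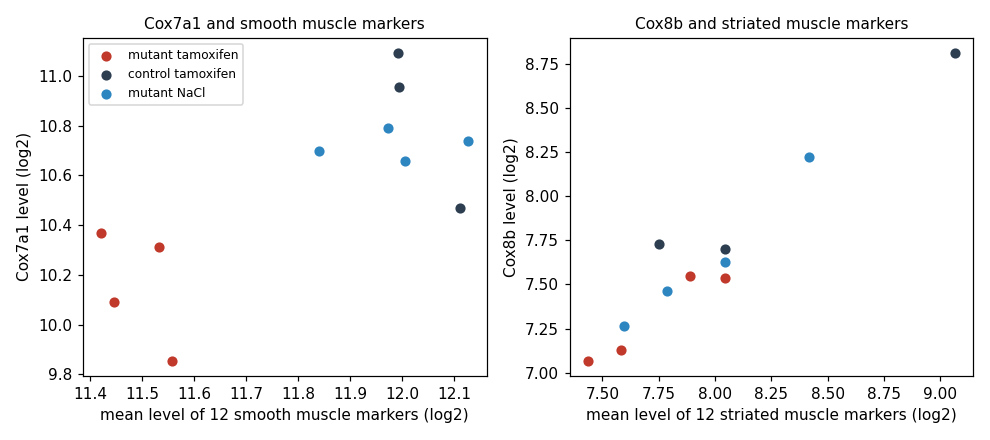
Level of Cox7a1 against the mean level of 12 smooth muscle markers (left) and of Cox8b against that of 12 striated muscle markers (right), both axes in log2, 1 point per array and a colour per group. The mutant tamoxifen arrays form a separate low group in the left panel, and 2 arrays stand apart at the top of the right panel (Cox8b at 8.81 and 8.22).

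The other tissue-restricted forms gave no call. Cox6a2, a heart and muscle form, differed from control tamoxifen by -0.17 (adjusted p = 0.27), Cox4i2 by -0.10 (adjusted p = 0.29) and Cox8c by -0.12 (adjusted p = 0.27). The testis forms Cox6b2 and Cox7b2 differed by 0.11 (adjusted p = 0.34) and 0.06 (adjusted p = 0.48). Their general partners Cox6a1, Cox6b1 and Cox7b differed by -0.10, -0.06 and -0.04.

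Ndufa4 gave the clearest increase among the members. Its product was first assigned to complex I and later recognised as a subunit of complex IV. Ndufa4 (Entrez Gene 17992) had levels of 10.13, 10.16, 10.04 and 10.11 in mutant tamoxifen, 9.50, 9.92 and 9.71 in control tamoxifen and 9.82, 9.87, 9.72 and 9.48 in mutant NaCl. Every mutant tamoxifen array lay above every other array, and the mutant tamoxifen values were the most tightly grouped of the 3. For Ndufa4 the term for sex, male minus female, was -0.24 (adjusted p = 0.49, limma). Its unadjusted p of 0.0027 was the smallest of that term among the members, and males were more frequent in the control group. Ndufa4 rose by 0.30 against control tamoxifen (SE 0.075, adjusted p = 0.016, 1.23-fold) and by 0.38 against mutant NaCl (SE 0.065, adjusted p = 0.0023, 1.31-fold). Without mutant tamoxifen array 3, the male, the first difference was 0.21 and no longer passed, and with female arrays alone it did not pass either.

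The paralogue Ndufa4l2, known as a hypoxia-induced gene, had levels of 7.48, 7.32, 7.0 and 6.94 in mutant tamoxifen, 7.09, 7.42 and 6.94 in control tamoxifen and 7.20, 7.56, 7.15 and 7.15 in mutant NaCl, with full overlap. Its sex-adjusted differences were -0.08 and -0.08 (adjusted p = 0.73 and 0.70), while its plain group mean was higher in mutant tamoxifen than in control tamoxifen, at 7.18 against 7.15. AA467197, the mouse gene of a further NDUFA4 relative, is not covered by the name rule and was looked up after the values were seen. It differed by -0.12 and 0.01 and did not pass.

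**Figure D4:**
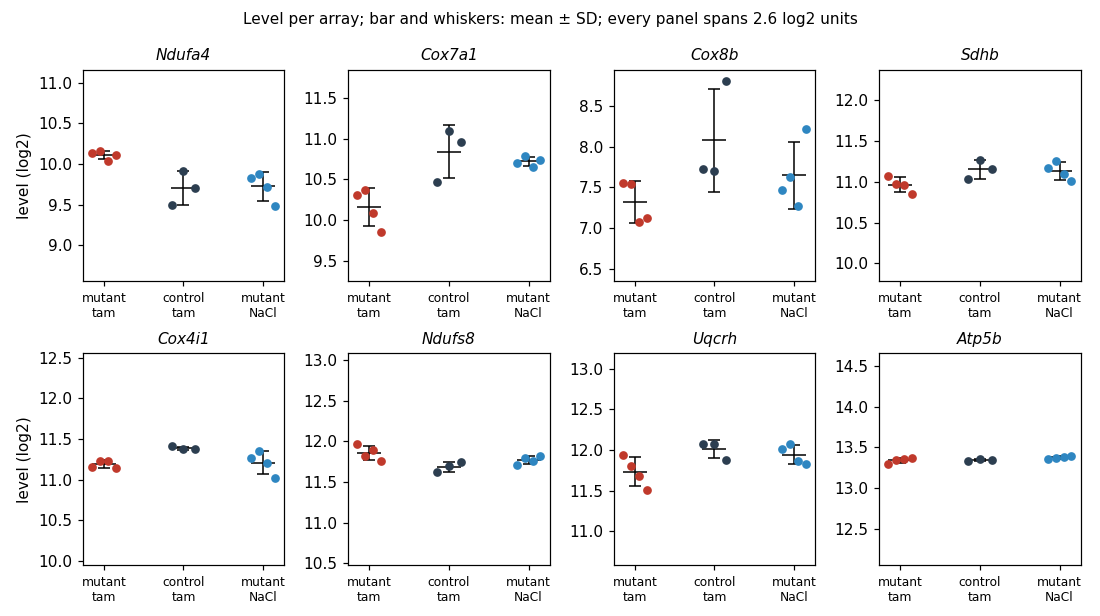
Level (log2) of 8 genes in each of the 11 arrays, by group, with the mean and standard deviation as a bar and whiskers. The axes of all panels span the same width, so that the separation of Ndufa4 and Cox7a1, the single high arrays of Cox8b, the small shifts of Sdhb, Cox4i1, Ndufs8 and Uqcrh, and the flat Atp5b (13.29 to 13.40 in all arrays) can be set side by side.

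Complex V consists of the catalytic F1 part, a peripheral stalk and a membrane part with a ring of subunit c. None of the 5 genes of the F1 part passed. Atp5b, the catalytic β subunit, had levels of 13.29, 13.34, 13.36 and 13.37 in mutant tamoxifen, 13.33, 13.36 and 13.34 in control tamoxifen and 13.36, 13.37, 13.38 and 13.40 in mutant NaCl. Its differences were 0.00 (95% confidence interval -0.07 to 0.07) and -0.04. Of the 9 stalk and membrane genes, 1 fell against control tamoxifen and none passed against mutant NaCl. Atp5h, subunit d of the peripheral stalk, had levels of 12.03, 11.94, 12.02 and 11.98 in mutant tamoxifen and 12.07, 12.23 and 12.22 in control tamoxifen. The groups did not overlap, and the difference was -0.22 (SE 0.061, adjusted p = 0.027). Against mutant NaCl values of 12.16, 12.17, 12.07 and 11.94 it was -0.10 (adjusted p = 0.22).

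Subunit c, the rotating ring of the synthase, is encoded by 3 genes that give the same mature protein. Atp5g1 differed from control tamoxifen by 0.12 (adjusted p = 0.38), Atp5g2 by -0.13 (adjusted p = 0.20) and Atp5g3 by 0.07 (adjusted p = 0.37). The intervals of all 3 lay within 1.5-fold either way.

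Most of these calls were close to the threshold. Each of the 19 other settings of the fit changed 1 processing choice, left out 1 array or fitted a subset of the arrays. The subsets were the female arrays, without a sex term, and the arrays of both groups compared. Ndufa4 kept its call in 17 settings against control tamoxifen and in 19 against mutant NaCl. Cox7a1 kept it in 18 and 19. Against control tamoxifen the others kept it in 14 (Atp5h), 13 (Ndufa3), 12 (Ndufa6 and Sdhb), 10 (Cox4i1), 9 (Uqcrh) and 7 (Ndufs8) settings, and against mutant NaCl in 14 (Ndufs3), 12 (Ndufb9), 11 (Ndufs7) and 10 (Ndufb6). None of these 13 genes changed sign in any setting of the comparison that called it.

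Leaving out 1 array gave 0 to 2 members higher and 1 to 8 lower against control tamoxifen. The count of higher members was 0 without mutant tamoxifen array 3, and it was 1 without mutant tamoxifen array 1 or 2, control array 1 or 2, or any single mutant NaCl array. The count of lower members was 1 without control array 2, 2 without control array 3 or mutant tamoxifen array 2, and 4 without mutant tamoxifen array 4. Against mutant NaCl the counts were 1 to 4 higher and 1 to 5 lower. There, 1 was higher without mutant tamoxifen array 3 or mutant NaCl array 1, 3 or 4. The lower count was 1 without mutant tamoxifen array 2 or 4 or mutant NaCl array 1 or 2, and 5 without mutant tamoxifen array 1.

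The third comparison, mutant NaCl against control tamoxifen, asks whether the uninduced mutant already differed from the tamoxifen-treated wild type, and it differs in both genotype and agent. The median difference of the members was -0.04, and 61 of 89 differences (68.5%) were below 0, beside a median of -0.01 and 54.6% below 0 over all genes. The members' median was -0.02 without the sex term, without control array 2 or 3, or without mutant NaCl array 3. It was 0.00 without mutant NaCl array 4, and -0.06 without control array 1. After Cox4i1, the members with the smallest p were Atp5mpl at -0.28 (adjusted p = 0.59), Atp5h at -0.12 (adjusted p = 0.66), Atp5c1 at -0.13 (adjusted p = 0.64), Ndufa6 at -0.17 (adjusted p = 0.64), Ndufa10 at -0.10 (adjusted p = 0.68), Ndufb6 at -0.21 (adjusted p = 0.68), Sdhd at -0.15 (adjusted p = 0.68), Cox7a2l at -0.16 (adjusted p = 0.69) and Ndufs8 at 0.10 (adjusted p = 0.70). For 88 members (98.9%) the interval lay within 1.5-fold either way, beside 95.1% of all genes.

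Some respiratory chain genes cannot be separated from near-identical copies. There were 6 transcript clusters that name a gene of the rule together with another symbol, and they were left out: 3 for Cox7c with Gm12338, 2 for Ndufb4 with Ndufb4b, and 1 for Ndufs5 with Ndufs5-ps. Cox7c and Ndufb4 have no cluster of their own and are therefore not among the 89 members, while Ndufs5 is. The 2 clusters of Ndufb4 and Ndufb4b read 12.02 to 12.15 and 12.24 to 12.37 in mutant tamoxifen, and 12.21 to 12.36 and 12.45 to 12.58 in control tamoxifen. In mutant NaCl they read 12.25 to 12.38 and 12.48 to 12.57. Both clusters were thus lower in mutant tamoxifen than in either other group without overlap, which was not tested. A further 17 members have several clusters of their own symbol, and the brightest was used. The differences of all clusters of a gene had 1 sign in 16 of 17 genes against control tamoxifen and in 17 of 17 against mutant NaCl.

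The nuclear respiratory factors NRF1 and GABP, the factor YY1 and the estrogen-related receptors are known regulators of respiratory chain genes, so the members' promoters were searched for their core letters. RefSeq promoters of mouse assembly GRCm38.p6, 250 bases before to 50 after a gene's start, were matched for 73 members, and both strands were searched. The NRF1 core GCATGCGC, whose reverse complement GCGCATGC can match overlapping bases, was in 12 (16.4%), beside 3.05% of all 27025 genes with promoters and 4.29% of the 15563 tested. The GABP core ACCGGAAG was in 8 (11%), beside 2.6% and 3.6%. The YY1 core AAGATGGC was in 10 (13.7%), beside 3.19% and 3.77%. The site TNAAGGTCA of the estrogen-related receptors was in 2 (2.74%), Atp5g3 and Sdhd, beside 1.43% and 1.16%. A match is a description of the letters and not a bound site.

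Of the 13 members called in either comparison, 11 had a promoter, and 7 of these held at least 1 core, as did 23 of the 62 others with a promoter. Ndufa6 and Sdhb, which fell, and Ndufs3 and Ndufs8, which rose, are shown as 60 bases around a core, in capitals. Ndufa4 and Cox7a1 passed in both comparisons and had none of the cores in their 300 bases. They are shown as the 100 bases before the start. All run 5′ to 3′ on the gene's strand, in GRCm38.p6. Their positions are chr15:82354341-82354400 on the minus strand for Ndufa6, chr4:140961191-140961250 and chr4:140961236-140961295 on the plus strand for Sdhb, chr2:90904697-90904756 on the minus strand for Ndufs3, chr19:3912750-3912809 on the minus strand for Ndufs8, chr6:11907451-11907550 on the minus strand for Ndufa4 and chr7:30184071-30184170 on the plus strand for Cox7a1.
Ndufa6, NRF1 core: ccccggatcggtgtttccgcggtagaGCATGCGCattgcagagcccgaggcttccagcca
Sdhb, NRF1 core: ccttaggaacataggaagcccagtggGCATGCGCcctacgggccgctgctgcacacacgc
Sdhb, GABP core: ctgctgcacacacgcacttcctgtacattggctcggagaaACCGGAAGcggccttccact
Ndufs3, GABP core on the other strand: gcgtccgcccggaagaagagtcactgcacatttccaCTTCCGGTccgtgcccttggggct
Ndufs8, GABP core on the other strand: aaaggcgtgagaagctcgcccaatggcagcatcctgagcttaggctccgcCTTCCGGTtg
Ndufa4, no core: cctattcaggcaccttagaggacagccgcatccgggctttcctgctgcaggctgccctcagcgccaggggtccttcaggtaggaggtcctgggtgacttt
Cox7a1, no core: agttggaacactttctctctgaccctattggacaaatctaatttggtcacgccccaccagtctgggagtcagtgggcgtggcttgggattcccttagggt
Among the called members the GABP core was in Ndufs3, Ndufs8 and Ndufb6, which rose, and in Sdhb, which fell. Ndufs8 was called against control tamoxifen alone, and Ndufs3 and Ndufb6 against mutant NaCl alone. The NRF1 core was in Ndufa6 and Sdhb and the YY1 core in Ndufa3 and Ndufs7, which fell. A link between a core and a direction was not tested.

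Other genes of mitochondrial biology are set beside the members by the same test. Among regulators of mitochondrial biogenesis, 2 of 17 rose and 4 fell against control tamoxifen, and 3 rose and 4 fell against mutant NaCl (35.3% and 41.2% called, beside 24.6% and 23.2% of all genes). Ppargc1a, the coactivator known for raising respiratory chain gene expression, had levels of 10.02, 9.93, 9.67 and 9.57 in mutant tamoxifen, 10.90, 10.73 and 11.05 in control tamoxifen and 11.23, 10.93, 10.85 and 11.03 in mutant NaCl. The groups were well apart, and it fell by 1.08 and 1.21 (adjusted p = 0.00055 and 0.00011, limma). Its relative Ppargc1b fell by 0.62 and 0.36, the nuclear receptor Esrrg by 0.53 and 0.43, and Polg2, the accessory subunit of the mitochondrial DNA polymerase, by 0.64 and 0.50. Pprc1, a further relative of Ppargc1a, rose by 0.55 and 0.41, with levels of 8.23 to 8.52 in mutant tamoxifen, 7.52 to 7.97 in control tamoxifen and 7.81 to 8.12 in mutant NaCl, without overlap. Ssbp1, which binds single-stranded mitochondrial DNA, rose by 0.26 and 0.26. Gabpb1, which encodes a GABP subunit, rose by 0.17 against mutant NaCl and differed by 0.14 from control tamoxifen (adjusted p = 0.089). Nrf1, Gabpa, Esrra and the mitochondrial transcription factor gene Tfam passed in neither comparison, with differences from control tamoxifen of 0.10, 0.12, -0.06 and 0.21.

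In the lists of mitochondrial ribosome and import genes, every called gene rose. The share called higher over all genes tested was 12.9% against control tamoxifen and 12.5% against mutant NaCl. Of 77 mitochondrial ribosome genes, 28 rose and none fell against control tamoxifen (36.4%, median 0.16), and 26 rose and none fell against mutant NaCl. Mrpl46 rose by 0.55 and 0.35, and Mrpl54 by 0.42 and 0.38. Of 22 genes for import into mitochondria, 13 rose and none fell (59.1%, median 0.26), and 12 rose and none fell against mutant NaCl. The intermembrane space chaperone Timm8a1 rose by 0.71 and 0.64, the matrix chaperonin Hspd1 by 0.49 and 0.46, and the receptor Tomm70a by 0.38 and 0.24. Proliferation markers moved in the same arrays. Of 11 measured, 11 rose against control tamoxifen and 8 against mutant NaCl, with mean levels of 10.41 to 10.54 in mutant tamoxifen, 9.28 to 9.91 in control tamoxifen and 9.90 to 10.14 in mutant NaCl. Their part in these results was not tested.

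Among 16 fatty acid oxidation genes, none rose and 8 fell against control tamoxifen (50%, median -0.16), and 4 fell against mutant NaCl (25%). Of all genes, 24.6% and 23.2% were called in these comparisons. The thiolase Acaa2 fell by 0.53 and 0.35, and Hadh, a hydroxyacyl-CoA dehydrogenase, by 0.32 and 0.26. Acadm, the medium-chain dehydrogenase, fell by 0.36 against control tamoxifen and differed by -0.21 from mutant NaCl (adjusted p = 0.051). Of 12 absorptive colonocyte markers, 7 fell and 2 rose in each comparison, with means of 10.22 to 10.47 in mutant tamoxifen, 11.01 to 11.33 in control tamoxifen and 10.91 to 11.05 in mutant NaCl. Their part in the fatty acid oxidation result was not tested.

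In the tricarboxylic acid cycle with pyruvate dehydrogenase, 1 of 18 genes rose and 2 fell in each comparison. These are 16.7% of the list, beside 24.6% of all genes against control tamoxifen and 23.2% against mutant NaCl. Citrate synthase, Cs, fell by 0.20 and 0.19, Ogdh by 0.16 and 0.16, and Pdhx rose by 0.35 and 0.28. Of 14 glycolysis genes, 3 rose and 1 fell against control tamoxifen (28.6%), and 8 rose and 2 fell against mutant NaCl (71.4%). The first share is near that of all genes and the second is above it. Hexokinase 2, Hk2, rose by 0.73 and 0.60, and Pfkm, the muscle phosphofructokinase, fell by 0.56 and 0.40.

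The lists of genes that assemble or serve the chain held 0 to 2 calls each in either comparison. Each list's called share was below that of all genes tested, 24.6% against control tamoxifen and 23.2% against mutant NaCl. Of 16 complex IV assembly genes, 2 rose against control tamoxifen, Lrpprc by 0.29 and Cox18 by 0.37, and 2 rose against mutant NaCl. Of 16 complex I assembly genes, which include the 7 Ndufaf members, Dmac2 fell by 0.36 against control tamoxifen. Against mutant NaCl, Dmac2 fell by 0.38 and Acad9 rose by 0.31. Of 14 assembly genes for complexes II, III and V, Atpaf2 rose by 0.24 against control tamoxifen and Lyrm7 fell by 0.20 against mutant NaCl. Cytochrome c itself, Cycs, differed by 0.16 from control tamoxifen (adjusted p = 0.13), and neither it nor its testis form Cyct, the complex III subunit gene Cyc1 or the heme lyase gene Hccs passed in either comparison. Among 9 carriers and channels, Vdac2 rose by 0.28 and Vdac3 fell by 0.28 against control tamoxifen (22.2% called). Against mutant NaCl, 1 of these 9 rose and 1 fell (22.2%). No gene of these 11 lists passed in mutant NaCl minus control tamoxifen.

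**Figure D5:**
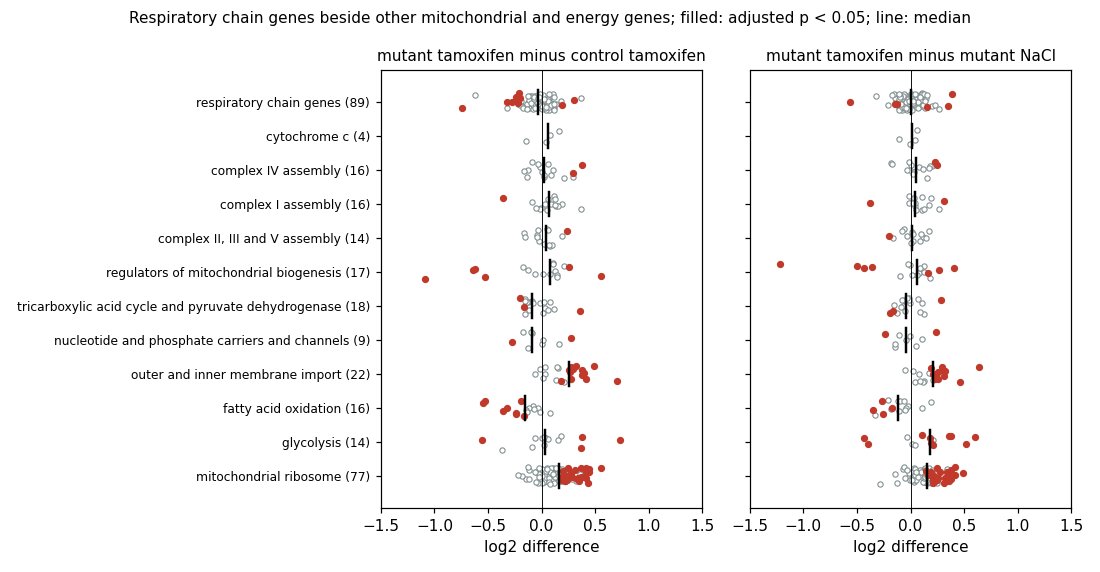
Log2 difference (horizontal axis) of each respiratory chain gene and of each gene of 11 other lists (vertical axis, number of genes in brackets), for both comparisons. Filled red points passed an adjusted p of 0.05 and the black line is the median. The respiratory chain genes cluster around 0, filled points of the mitochondrial ribosome and import lists all lie right of 0, and those of fatty acid oxidation all lie left of it.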

How the data were processed

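RNA from 11 rectal mucosa samples was read on Affymetrix Mouse Gene 1.0 ST arrays. The authors deposited 1 log2 value per transcript cluster and array, made with RMA in Affymetrix Expression Console, per the submitters' processing notes, which also name Partek without a role. The design text gives Command Console version 2.0 and Expression Console version 1.1. A genome build for these values is not given in the sources used here.

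Of 35556 transcript clusters, 21789 carried 1 gene symbol in the platform annotation, 1621 several and 12146 were not listed. The brightest cluster per symbol gave 19938 genes. All 11 arrays were fitted together in limma 3.58.1 (R 4.3.3) with terms for group and sex and a variance trend on the mean level. Two-sided p-values were adjusted by Benjamini and Hochberg's method across the 19938 genes, and an adjusted p under 0.05 was called. The steps were tested on simulated data.

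Named were members past the threshold (the 10 largest each way), the 10 smallest p where fewer than 5 passed, complex II, the complex I core, Uqcrc1, Uqcrc2, Uqcrfs1, Cox7a2l, isoform pairs, subunit c genes and Itga6, and for the other lists up to 4 genes with the smallest p. Ndufa1, Ndufs4, Ndufb11, Cox6c, Atp5b, Pprc1, Ssbp1, Gabpb1, Nrf1, Gabpa, Esrra, Tfam, AA467197 and the shared clusters were chosen after their values were seen. The members and lists were chosen with earlier results of these data known.

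Alternatives were leaving out the sex term, fitting female arrays alone, fitting only both groups of a comparison, dropping the dimmest 25% of genes, arrays centred on their median, a second quantile normalization, no variance trend, the mean of all clusters of a gene, and each array left out in turn.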

Additional observations from a re-analysis of the deposited data

Results flagged for a closer look

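Among the named members, several groups of 4 arrays held a single array apart from the others. Dixon's test of the gap divided by the range marks about 1 group in 20 by chance. Over all 89 members it marked 13 of 178 groups (7.3%). Ndufb6 was 11.93 in mutant tamoxifen array 1, below the other 3 at 12.12 to 12.15. Uqcrc1 was 11.76 in mutant tamoxifen array 2, below the others at 11.89 to 11.90. Ndufb11 was 11.22 in the same array, below the others at 11.41 to 11.42. In mutant NaCl array 4, Atp5g1 was 12.89, above the others at 12.76 to 12.78, and Ndufa6 was 11.06, below the others at 11.35 to 11.41. In mutant NaCl array 2, Cox7a2 was 11.36, above the others at 11.22 to 11.24, and Ndufa4l2 was 7.56, above the others at 7.15 to 7.20. The control group of 3 arrays is too small for this test.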

How the results depend on the processing

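The count of members higher against control tamoxifen was 0 with female arrays alone and 1 with a second quantile normalization or only the arrays compared. The count lower was 1 with female arrays alone and 3 with only the arrays compared. In the female fit, the lone control array is assumed to vary like the other groups. Against mutant NaCl, 1 member was higher with female arrays alone, and 6 were lower with a second quantile normalization or the mean of all clusters. Leaving out 1 array gave 0 to 2 higher and 1 to 8 lower against control tamoxifen, 1 to 4 higher and 1 to 5 lower against mutant NaCl, and 0 in each direction for mutant NaCl against control tamoxifen. The median difference of the members then ran from -0.07 to -0.01, from -0.04 to 0.02 and from -0.06 to 0.00 in the 3 comparisons. In all settings it moved by less than 0.0596, the standard deviation of the members' mean between arrays of a group. Ndufa6 changed sign in mutant NaCl minus control tamoxifen, at 0.0070 with female arrays alone. For the named members, 386 of the values kept their direction and side of the threshold and 88 no longer passed. The 386 include values from mutant NaCl minus control tamoxifen, where no member was called and no call could be lost. All of the 88 come from members called in the other comparisons, so the 386 do not measure how stable the calls were. No paired analysis was possible because the labels give no replicate numbers.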
